A study of Homo sapiens with 8 samples.

Results

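The IFIT and IFITM families are 2 small groups of interferon-stimulated antiviral genes. Their members were taken by gene symbol from the deposited expression table: IFIT1, IFIT2, IFIT3 and IFIT5, and IFITM1, IFITM2 and IFITM3, which makes 7 of the 60664 genes listed. All 7 reached 1 FPKM (fragments scaled for gene length and library size) in at least 2 of the 8 libraries and so were among the 14899 genes tested. RNA-seq had been performed on THP-1 cells, a human acute monocytic leukaemia line. Parental THP-1 cells and decitabine-resistant (DAC-resistant) THP-1 cells were each treated for 6 days with DMSO as control or with 1 µM decitabine (DAC), a cytidine analogue that traps DNA methyltransferases and lowers DNA methylation. The labels give the genotype of all 4 groups as WT, and each group had 2 biological replicates. The DAC-resistant cells had been selected from the parental line by repeated pulses of DAC over months. They are a selected population that is not stated to be a clone, and the number of separate selections is not given in the sources used here, so resistance and the history of that population cannot be told apart. The labels do not say whether replicates were separate cultures, and p-values measure only the spread between these libraries.

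Reads recovered from the FPKM values came to between 28717811 and 33417046 per library on genes, so that the lowest member value, IFIT1 in parental DMSO cells, still stood on 106 reads. Of 14 myeloid markers, between 11 and 13 were at 1 FPKM or more in each group, and their summed level was 564 to 578 FPKM in parental DMSO libraries, 743 to 746 in parental DAC libraries, 481 to 499 in DAC-resistant DMSO libraries and 505 to 511 in DAC-resistant DAC libraries. Of the 13 tested, LYZ and MPO were called higher by limma (unadjusted p at most 0.01 and a log2 change of at least 1) with DAC in parental cells, and CD33, LYZ, ITGAM and TYROBP lower in DAC-resistant cells in DMSO. Of 8 plasma cell markers, 3, 4, 5 and 5 were at 1 FPKM or more in those groups in the same order, with sums of 60.4 to 62.1, 59.1 to 61.6, 101 and 107 FPKM, most of it XBP1. Of the 5 plasma cell markers tested, SDC1 and PRDM1 were called higher with DAC in parental cells, and SDC1 and IRF4 higher in DAC-resistant cells in DMSO. Of 5 markers of B cells at most 3, of 5 of T and NK cells 1, and of 4 of fibroblasts at most 2 were at that level in any group, and for erythroid and epithelial cells at most 1 of 5. The sums for T and NK cells were 5.15 to 6.19, 16.9 to 17.6, 2.04 to 2.76 and 1.68 to 2.74 FPKM in the 4 groups in that order, nearly all of it NKG7. The fibroblast sums were 0.644 to 0.693, 6.61 to 7.24, 6.26 to 6.35 and 4.72 to 4.78 FPKM, higher in the 3 groups where the members were higher. In DAC-resistant cells nearly all of that sum was COL1A1 (6.13 and 4.48 FPKM in DMSO and DAC), with COL3A1 at 0.00985 and 0 and COL1A2 at 0.00154 and 0.0104. The part of these markers in the results was not tested. These are bulk libraries, in which more cells expressing a gene and more RNA per cell cannot be told apart.

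IFIT proteins are cytoplasmic RNA-binding proteins built from tetratricopeptide repeats. IFIT1 recognises RNA whose cap lacks the methyl marks of the host's own mRNA, IFIT3 and IFIT2 join it in a complex, and IFIT5 binds RNA with a free triphosphate end. IFITM proteins are small membrane proteins that hinder fusion of enveloped viruses with the cell, IFITM1 mostly at the cell surface and IFITM2 and IFITM3 mostly in endosomes. Type I interferon switches both families on through its receptor and the factor ISGF3, which binds interferon-stimulated response elements near the genes' starts.

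On GRCh38 the IFIT genes lie together on the plus strand of chromosome 10: IFIT2 at chr10:89283694-89309271, IFIT3 at chr10:89327307-89377473, IFIT1 at chr10:89392546-89406487 and IFIT5 at chr10:89414568-89421605. The IFITM genes lie together on chromosome 11: IFITM2 at chr11:303655-309397 and IFITM1 at chr11:310041-315272 on the plus strand, and IFITM3 at chr11:319676-329475 on the minus strand. All 7 are protein-coding genes in GENCODE v44, listed in the table as ENSG00000119922 (IFIT2), ENSG00000119917 (IFIT3), ENSG00000185745 (IFIT1), ENSG00000152778 (IFIT5), ENSG00000185201 (IFITM2), ENSG00000185885 (IFITM1) and ENSG00000142089 (IFITM3).

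Since the members rose together, their promoters are shown with the letters of the response element. RefSeq promoter windows (GRCh38.p14, from 250 bases before a transcription start to 50 after it) were matched for 5 of the 7 members, and IFIT3 had 2 windows with different starts. The motif searched was GAAA, any 2 bases and GAAA again, on either strand, which on the other strand reads TTTC, any 2 bases and TTTC. The stretch that holds the matches is printed 5′ to 3′ on the gene's own strand, with matches in capitals, for IFIT1 (chr10:89392467-89392569), IFIT3 (chr10:89327801-89327924 and chr10:89332395-89332527), IFIT5 (chr10:89414483-89414573), IFITM1 (chr11:313960-314043) and IFITM3 (chr11:320861-320952, minus strand).
IFIT1: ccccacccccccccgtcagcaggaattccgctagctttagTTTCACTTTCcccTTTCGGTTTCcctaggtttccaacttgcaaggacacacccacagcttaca
IFIT3 window 1: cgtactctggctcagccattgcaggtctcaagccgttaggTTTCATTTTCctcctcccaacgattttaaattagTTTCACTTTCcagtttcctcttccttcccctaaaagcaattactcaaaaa
IFIT3 window 2: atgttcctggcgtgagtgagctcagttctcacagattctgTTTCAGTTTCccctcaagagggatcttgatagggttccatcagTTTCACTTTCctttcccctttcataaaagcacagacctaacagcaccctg
IFIT5: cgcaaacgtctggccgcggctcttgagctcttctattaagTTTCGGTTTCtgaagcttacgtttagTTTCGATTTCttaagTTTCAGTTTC
IFITM1: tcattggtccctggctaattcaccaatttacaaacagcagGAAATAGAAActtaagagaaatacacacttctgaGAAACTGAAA
IFITM3: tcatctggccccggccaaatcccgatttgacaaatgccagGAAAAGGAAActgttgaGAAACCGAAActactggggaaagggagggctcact

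Each of the 6 windows held at least 2 matches, and that of IFIT5 held 3. Of all 35114 RefSeq windows of the same 300 bases, 3.57% held at least 1 match and 0.259% held 2 or more. In the IFIT promoters every match had the TTTC form along the gene's strand, whereas those of IFITM1 and IFITM3 had the GAAA form. The pair in IFIT1 began at positions -116 and -103 from the start and the pair in IFITM3 at -52 and -35. In IFITM1 and IFIT5 the last match ran across the transcription start. These windows held few CpG dinucleotides, the sites that DNA methyltransferases modify: 4 in IFIT1, 5 and 1 in the IFIT3 windows, 3 in IFITM1 and 8 in IFITM3, against 16 in IFIT5 and a median of 14 over all windows. A match of letters is a description of the sequence and no evidence that a factor was bound.

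The comparison of DAC with DMSO in parental cells asked how far the drug raises these genes in sensitive cells. All 4 IFIT genes and IFITM1 and IFITM3 rose between 11.03-fold and 65.6-fold in mean FPKM, while IFITM2 rose 1.79-fold. IFIT1, the cap sensor, was at 0.854 and 0.758 FPKM in the DMSO libraries and at 51.8 and 54.0 in the DAC libraries. IFIT3, its stabilising partner, went from 1.898 and 1.82 to 69.3 and 69.6 FPKM, a 37.4-fold rise, and was the most abundant IFIT transcript in both groups. IFIT2, which also joins that complex, went from 1.57 and 1.43 to 26.6 and 27.7 FPKM, an 18.1-fold rise. IFIT5 rose least within its family, from 1.62 and 1.29 to 16.5 and 15.6 FPKM. In each of these genes both DAC libraries lay above both DMSO libraries, as they did for 44.9% of all genes tested.

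Of the IFITM genes, IFITM1 was at 10.4 and 10.6 FPKM in DMSO and at 222 and 237 in DAC, a 21.9-fold rise to the highest level of any member. IFITM3, the endosomal entry inhibitor, rose 14.1-fold, from 12.4 and 11.8 to 171 and 169 FPKM. IFITM2 started from the highest level of the 7, at 29.4 and 30.9 FPKM, and reached 53.3 and 54.9. Its groups did not overlap either, but its rise was far smaller than those of the neighbouring IFITM1 and IFITM3.

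Tests were made with limma on log2(FPKM + 1), with p-values adjusted by the Benjamini-Hochberg method over all 14899 genes. A gene was called where p before adjustment was at most 0.01 and the log2 change 1 or more in size. On this scale low genes change less than their FPKM ratio. The log2 fold change with DAC in parental cells was 4.90 (SE 0.06) for IFIT1, 4.62 (SE 0.05) for IFIT3, 3.49 (SE 0.04) for IFIT2 and 2.80 (SE 0.08) for IFIT5, with adjusted p of 3.8e-08, 3.2e-08, 4.3e-08 and 8.2e-07. For IFITM1 it was 4.33 (SE 0.05), for IFITM3 3.71 (SE 0.03) and for IFITM2 0.82 (SE 0.05), with adjusted p of 3.8e-08, 2.8e-08 and 2.9e-05. Ordered by the size of the rise among all genes tested, IFIT1 stood at place 13, IFIT3 at 22, IFITM1 at 28, IFITM3 at 54, IFIT2 at 64, IFIT5 at 117 and IFITM2 at 1409. Thus 6 of the 7 members were called higher, where 6.66% of all genes were, and all 7 passed an adjusted p of 0.05, where 33.6% of all genes did in that direction. IFITM2 missed the call by the size of its change alone. An exact permutation test of 2 libraries against 2 cannot go below p = 0.333, so the tests rest on the spread that limma shares among genes.

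The next comparison, DAC-resistant against parental cells in DMSO, asked where the families stand in resistant cells with no drug added. All 7 members were higher in the DAC-resistant cells. IFIT1 was at 16.8 and 15.8 FPKM, 20.2-fold the parental mean, IFIT3 at 24.5 and 27.1 FPKM, 13.9-fold, and IFIT2 at 26.9 and 27.1 FPKM, 18.0-fold. IFIT5, at 4.22 and 4.01 FPKM, was 2.83-fold higher, so that it lagged behind its neighbours on the chromosome. IFITM1 was at 56.3 and 56.5 FPKM and IFITM3 at 50.5 and 48.5, 5.39-fold and 4.09-fold the parental means. IFITM2, at 43.1 and 41.6 FPKM, was 1.41-fold higher and was no longer the most abundant of its family. No DAC-resistant library overlapped a parental one for any member, a separation upwards that 41.7% of all genes tested showed.

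The log2 differences were 3.49 (SE 0.04, adjusted p = 6.1e-08) for IFIT2, 3.26 (SE 0.06, 2.3e-07) for IFIT1 and 3.23 (SE 0.05, 1.4e-07) for IFIT3 in the same limma fit. IFIT2, IFIT1 and IFIT3 stood at places 22, 31 and 32 of all genes by size of the rise. IFITM1 followed with 2.32 (SE 0.05, 5.5e-07), IFITM3 with 1.95 (SE 0.03, 2.3e-07), IFIT5 with 1.06 (SE 0.08, 5.4e-05) and IFITM2 with 0.48 (SE 0.05, 0.00033). Here too 6 of 7 members were called higher, against 4.45% of all genes, and all 7 passed an adjusted p of 0.05, against 31.3%. The call of IFIT5 rested on its size being just past the threshold: without parental DMSO replicate 2 it was 0.97 and not called.

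**Figure D1:**
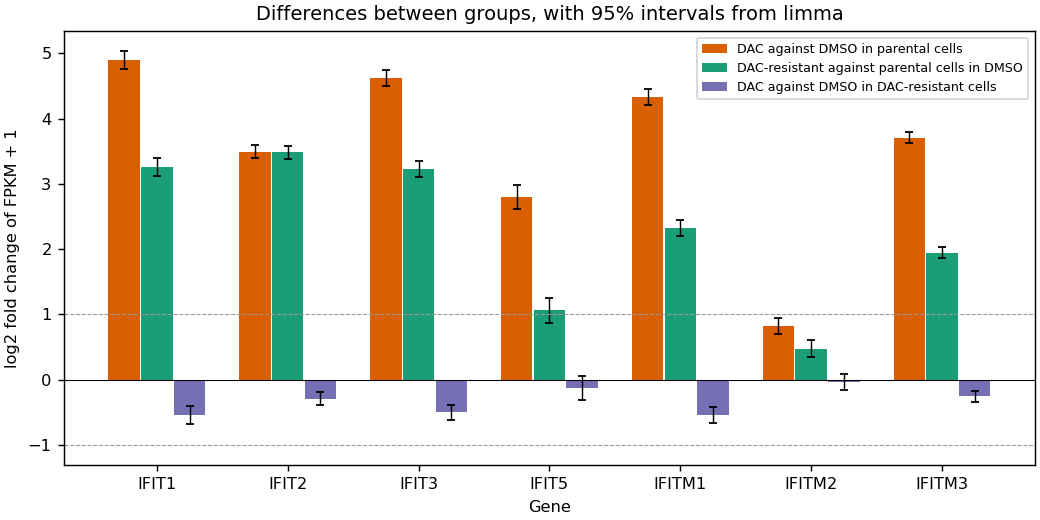
Log2 fold change of FPKM + 1 for each member in 3 comparisons, as bars from 0 with 95% intervals from limma and dashed lines at the threshold of 1 in either direction. For IFIT2 the bar for the drug in the parental line and the bar for the resistant line in DMSO are equal in height (3.49 for both), and the bars for the drug in the resistant line are all below 0.

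In DAC-resistant cells, 6 days of DAC raised none of the 7 genes. IFIT1 was at 11.3 and 10.4 FPKM with DAC, 66.6% of its DMSO mean, IFITM1 at 40.3 and 36.6 FPKM, 68.2%, and IFIT3 at 18.0 and 17.9 FPKM, 69.6%. These were the members that fell most. IFIT2 was at 21.7 and 22.2 FPKM, 81.3% of its DMSO mean, and IFITM3 at 40.8 and 41.9 FPKM, 83.6%. In these 5 genes both DAC libraries lay below both DMSO libraries, the opposite order to that in parental cells, and so they did for IFIT5, a separation downwards that 26.4% of all genes tested showed. IFIT5 was at 3.81 and 3.57 FPKM, 89.7% of its DMSO mean. IFITM2 was at 39.4 and 43.6 FPKM, 97.9%, with libraries on either side of the DMSO ones. 

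Log2 fold changes were -0.55 for IFIT1, -0.54 for IFITM1, -0.50 for IFIT3, -0.29 for IFIT2 and -0.25 for IFITM3, with adjusted p of 0.0037, 0.0025, 0.0028, 0.011 and 0.0088. These 5 of 7 members passed an adjusted p of 0.05 as lower, where 5.35% of all genes did, and 0 of 7 were called, where 0.235% were called in either direction. With voom on the recovered reads 0 of 7 were called as well, and in limma 5 had an unadjusted p under 0.05. The share over all genes depended on the fit. Lower at an adjusted p of 0.05 were 797 genes, against 200 with only the compared libraries fitted, 599 with a replicate block and 1353 with voom. The result for IFIT2 was lost without any 1 of the DAC-resistant libraries, with adjusted p of 0.063 and 0.061 without DMSO replicates 1 and 2 and 0.065 and 0.058 without DAC replicates 1 and 2. For IFITM3 it was lost without DMSO replicate 1 (0.058) or DAC replicate 1 (0.055). For IFIT5 the log2 fold change was -0.12 (95% interval -0.31 to 0.06, adjusted p = 0.37), and for IFITM2 -0.03 (-0.16 to 0.10, 0.77), so that a small change in either direction was within the intervals. The sign for IFITM2 turned, to 0.04, without DAC-resistant DAC replicate 1.

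The difference between the DAC effects in DAC-resistant and parental cells was tested as the interaction of cell line and treatment, and each member's DAC effect was lower in DAC-resistant cells. It was -5.45 (SE 0.08) on the log2 scale for IFIT1, -5.12 (SE 0.07) for IFIT3 and -4.87 (SE 0.07) for IFITM1, which stood at places 11, 12 and 16 from the bottom among all genes. For IFITM2 it was -0.85 (SE 0.07). The adjusted p was at most 0.00018 for every member. Of the 7, 6 were called lower, against 7.16% of all genes, and all 7 passed an adjusted p of 0.05 as lower, against 28.4%.

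With DAC in both lines, DAC-resistant cells stood below parental cells for all 7 genes. The DAC-resistant level was 16.8% of the parental one for IFITM1, 20.5% for IFIT1, 23.0% for IFIT5, 24.3% for IFITM3 and 25.9% for IFIT3, with log2 differences from -2.55 to -1.86 and adjusted p of at most 2.7e-06. It was 76.7% for IFITM2 and 80.7% for IFIT2, with log2 differences of -0.38 and -0.30 and adjusted p of 0.00075 and 0.00083. The 5 former genes were called lower, against 9.17% of all genes, and all 7 passed an adjusted p of 0.05 as lower, against 35.1%.

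Setting DAC-resistant cells in DMSO beside parental cells in DAC shows how much of the drug-induced level the resistant cells held without drug. IFIT2 reached 99.3% of it, and the 4 ratios of a DAC-resistant to a parental library ran from 97.0% to 102%. Its log2 difference was -0.01 (SE 0.04, 95% interval -0.11 to 0.09, adjusted p = 0.87), and the sign turned, to 0.09, when FPKM was rescaled to TPM, which has the same total in every library, and, to 0.02, without parental DAC replicate 2. IFIT3 reached 37.2%, IFIT1 30.8% and IFIT5 25.7%, so that IFIT2 stood apart within its family by this measure. In the IFITM family IFITM2 reached 78.3%, IFITM3 29.1% and IFITM1 24.6%. Parental cells in DMSO already held 55.7% of that level for IFITM2, against 1.52% to 9.07% for the other 6 members and 5.52% for IFIT2. Called lower were 5 of 7 members, against 9.22% of all genes, with log2 differences from -2.01 to -1.39, and 6 of 7 passed an adjusted p of 0.05 as lower, against 34.6%. The comparisons above share libraries (parental DMSO or parental DAC cells serve in several), so they are given side by side and are not independent of each other.

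Over the 4 groups the means of every member ran in the order parental DMSO, DAC-resistant DAC, DAC-resistant DMSO, parental DAC. The upper pair differed at an adjusted p under 0.05 for every member but IFIT2, and the middle pair for every member but IFIT5 and IFITM2. The lowest pair was not tested.

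The make-up of each family differed between groups. FPKM is scaled by gene length, so shares of the summed FPKM of a family can be compared. The IFIT sum was 5.62 ± 0.462 FPKM (SD, n = 2) in parental DMSO cells, 166 ± 1.88 in parental DAC cells, 73.2 ± 1.13 in DAC-resistant DMSO cells and 54.4 ± 0.574 in DAC-resistant DAC cells. In parental cells DAC raised the share of IFIT1 from 14.3% to 31.9% and lowered that of IFIT2 from 26.7% to 16.4% and that of IFIT5 from 25.8% to 9.68%. In DAC-resistant cells IFIT2 held 36.9% in DMSO and 40.3% in DAC, and IFIT5 5.62% and 6.78%. The ratio of IFIT2 to IFIT3 in the 4 DAC-resistant libraries was 1.09 and 0.999 in DMSO, near equal, and 1.20 and 1.24 in DAC, with IFIT2 the higher. In parental cells that ratio was 0.830 and 0.785 in DMSO and 0.384 and 0.398 in DAC, below every DAC-resistant library. The ratio of IFIT2 to IFIT1 did not separate the lines in that way, with 1.84 and 1.88 in parental DMSO libraries, above the 1.604 and 1.715 of DAC-resistant DMSO libraries, and 1.91 and 2.14 in DAC-resistant DAC libraries against 0.514 and 0.513 in parental DAC libraries.

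The IFITM sum was 52.7 ± 0.751 FPKM in parental DMSO cells and 454 ± 10.97 in parental DAC cells. It was 148 ± 2.29 and 121 ± 1.11 FPKM in DAC-resistant cells in DMSO and DAC (SD, n = 2 throughout). IFITM2 made up 57.2% of the sum in parental DMSO cells but 11.9% in parental DAC cells, where IFITM1 took 50.6% and IFITM3 37.5%. In DAC-resistant cells the 3 genes were closer to each other, with 38.1%, 28.6% and 33.4% for IFITM1, IFITM2 and IFITM3 in DMSO and 31.7%, 34.2% and 34.1% in DAC. Shares were compared as descriptions, with no test.

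How counting could move these levels was examined on the annotated transcripts. Of the 100-base stretches in its transcripts, 20.3% for IFITM1, 19.1% for IFITM3 and 6.81% for IFITM2 also occur in another gene, mostly another IFITM gene or an overlapping transcript, so how reads were split among the 3 IFITM genes is uncertain. For IFIT2 the share was 6.28%, all of it with an overlapping lncRNA at no more than 0.150 FPKM in any group's mean, and for IFIT1, IFIT3 and IFIT5 it was 0. With 50-base stretches the shares were 34.97% for IFITM1, 30.8% for IFITM3, 21.7% for IFITM2, 9.29% for IFIT2, 3.17% for IFIT3, 1.17% for IFIT1 and 0 for IFIT5, and LIPA was among the genes that shared them with IFIT2 and IFIT3. The gene LIPA, which encodes a lysosomal lipase, runs on the opposite strand across IFIT1, IFIT2 and IFIT3, and whether the counting used strand is not given in the sources used here. LIPA was at 25.5, 24.8, 27.3 and 26.6 FPKM in parental DMSO, parental DAC, DAC-resistant DMSO and DAC-resistant DAC cells, above the 3 IFIT genes in parental DMSO cells, and its log2 fold change with DAC in parental cells was -0.04. A readthrough gene (ENSG00000288681) over IFITM1 and IFITM2 had means of 0, 3.05, 0.767 and 0.171 FPKM in the same order.

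Other genes of these names were close to 0. IFIT1B, the neighbouring paralogue of IFIT1, had at most 12 reads in a library (0.221 FPKM), IFITM5 at most 0.297 FPKM, IFITM10 at most 0.683 FPKM and the pseudogene IFITM4P at most 0.676 FPKM.

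With DAC in parental cells the tested genes around each cluster moved less than the members on the log2(FPKM + 1) scale. In mean FPKM IFITM2 went from 30.1 to 54.1, and by ratio some low neighbours moved more. ACTA2 went from 1.56 to 0.825 and ANO9, which was not tested, from 0.447 to 0.988. Of 9 listed neighbours of the IFIT cluster 5 were tested, of which 0 were called by limma or voom. Of these 5, 3 had an unadjusted p under 0.05, where 8593 of all 14899 genes passed an adjusted p of 0.05. The 5 were FAS, a death receptor, with a log2 fold change of 0.38, ACTA2, smooth muscle actin, with -0.49, LIPA with -0.04, PANK1, a pantothenate kinase, with -0.04, and KIF20B, a kinesin, with -0.30. Of 12 listed neighbours of the IFITM cluster 7 were tested, of which 0 were called by limma or voom. Their log2 fold changes ran from -0.27 (PGGHG) to 0.54 (RIC8A), and 4 had an unadjusted p under 0.05. At least those 8593 genes also passed the unadjusted threshold, so the counts of 3 and 4 do not set the neighbours apart. In DAC-resistant against parental cells in DMSO, limma called ACTA2 lower, with a log2 difference of -1.35, which is larger in size than that of IFIT5 (1.06). With voom FAS was called lower as well, with a log2 difference of -1.44 there against -0.43 in limma.

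The other genes of the pathway were counted from lists. Of 17 type I interferon genes, IFNB1, which encodes interferon-β, was tested. IFNB1 was at 0 and 0.0393 FPKM in parental DMSO libraries (0 and 1 reads) and at 0.303 and 0.520 in parental DAC libraries (7 and 12 reads). In DAC-resistant cells it was at 1.74 and 2.02 FPKM in DMSO (46 and 51 reads) and at 1.905 and 2.33 in DAC (51 and 60 reads). Every DAC-resistant library was thus above every parental one, including those with DAC, in which the IFIT and IFITM genes other than IFIT2 were higher. The log2 difference between DAC-resistant and parental cells in DMSO was 1.496 (SE 0.13, adjusted p = 9.6e-05), and the log2 fold change with DAC in parental cells 0.47 (SE 0.13, 0.018), which was not called. With voom, on the log2 scale of recovered reads and without the added 1 FPKM, these were 5.83 and 3.67 (SE 1.09 and 1.17, adjusted p = 8.2e-05 and 0.01), and both were called. They rest on 0 and 1 reads in the parental DMSO libraries, so neither size is a bound.

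Between the interferon receptor and its target genes, STAT2 and IRF9, which act in ISGF3, were called higher with DAC in parental cells. STAT2 went from 19.9 to 52.7 FPKM in the group means (log2 fold change 1.36) and IRF9 from 0.657 to 3.11 (1.31). In DAC-resistant cells in DMSO neither was called. STAT2 was at 27.0 FPKM there (log2 difference from parental DMSO cells 0.42, adjusted p = 0.00015) and IRF9 at 0.510 (-0.14, 0.31). The receptor subunits IFNAR1 and IFNAR2 and the receptor's kinases JAK1 and TYK2 were called in neither comparison, with log2 fold changes from -0.16 to 0.14 for DAC in the parental line and log2 differences from -0.49 to -0.16 between the lines in DMSO.

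Of 11 genes that sense RNA or pass the signal on to interferon, 9 were tested. With DAC in parental cells 4 were called higher, where 6.66% of all genes were. The 4 were IRF7, the factor that amplifies interferon transcription (log2 fold change 3.52), IFIH1 (MDA5, a dsRNA sensor, 2.08), DHX58 (its regulator LGP2, 2.06) and the kinase gene IKBKE (1.17). In DAC-resistant cells in DMSO limma called IRF7, with a log2 difference of 1.04, and voom also called DHX58, with 1.01 against 0.62 in limma. RIGI, the dsRNA sensor RIG-I, was below 1 FPKM in all groups and not tested, with means of 0.135 FPKM in parental DMSO, 0.797 in parental DAC, 0.207 in DAC-resistant DMSO and 0.174 in DAC-resistant DAC cells. Of 5 brakes on the pathway, USP18 (2.99) and SOCS3 (1.33) were called higher when the parental line received DAC. Between the lines in DMSO 0 of the 5 were called, by limma and by voom alike, while 4 had an unadjusted p under 0.05. In that comparison 8574 of all 14899 genes tested passed an adjusted p of 0.05. At least that many passed the looser unadjusted threshold.

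Of 25 other antiviral interferon-stimulated genes, all tested, 24 were called higher with DAC in parental cells, where 6.66% of all genes were. Their median log2 fold change was 3.28 against 0.06 over all genes. In DAC-resistant cells in DMSO 13 were called higher (median 1.02 against 0.02), where 4.45% of all genes were. With voom 14 were called higher and MX1 lower. With DAC in DAC-resistant cells 0 were called by limma or voom (median -0.43 against 0.01), where limma called 0.235% of all genes. There 22 had an unadjusted p under 0.05 and 20 passed an adjusted p of 0.05 as lower, where 5.35% of all genes did. The interaction was called lower for 25 of 25, against 7.16% of all genes. As a share of the level in parental DAC cells, DAC-resistant cells in DMSO held a median of 16.4% over these genes, from 0.533% for MX1, the dynamin-like GTPase, to 137% for HERC5, the ligase that attaches ISG15. HERC5 was the single gene of the 25 above 80%, with a log2 difference of 0.43 (adjusted p = 0.0043). DDX60L (74.2%), DDX60 (72.2%) and OASL (72.1%) came next.

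Of 5 genes for cap methylation and the initiation factor eIF3, with which IFIT proteins compete or bind, CMTR1, a cap methyltransferase, was called higher with DAC in parental cells (log2 fold change 1.22) and EIF3E lower (-1.18). CMTR2, the other ribose methyltransferase of the cap, went from 4.42 FPKM in parental to 0.338 in DAC-resistant cells in DMSO (log2 difference -2.02, adjusted p = 4.7e-06). Of 6 genes whose products modify or bind IFITM proteins, 0 were called by limma or voom in either comparison. In each, 5 had an unadjusted p under 0.05, which is not read as a difference from other genes. Of all 14899 genes tested, 8593 passed an adjusted p of 0.05 with DAC in parental cells and 8574 between the lines in DMSO. At least that many passed the looser unadjusted threshold. The largest changes among the 6 were in NEDD4, a ubiquitin ligase (-0.77 with DAC in parental cells), and in ZMPSTE24, a membrane protease (-0.74 in DAC-resistant cells in DMSO).

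The genes whose pattern over the 8 libraries was most like that of each family were found by Pearson correlation of log2(FPKM + 1) with the mean standardised profile of the members, among genes whose group means span at least 1 on that scale. For the IFIT family they were PLEC (r = 0.999), BZW1 (0.996), PNPT1 (0.994), SFMBT2 (0.994) and STK17B (0.994), of 2354 candidates. For the IFITM family they were COL6A2 (0.999), IFI44 (0.998), OTOF (0.998), CCNA1 (0.998) and KCNH2 (0.997), of 2356 candidates. PLEC, which encodes plectin, was at 9.10, 21.5, 16.2 and 15.2 FPKM in parental DMSO, parental DAC, DAC-resistant DMSO and DAC-resistant DAC cells, and COL6A2, a collagen gene, at 3.35, 24.1, 10.7 and 9.15. The members' own r with the profile of their family was 0.999 for IFIT1 and IFIT3, 0.927 for IFIT5 and 0.925 for IFIT2, and 0.999, 0.996 and 0.991 for IFITM3, IFITM1 and IFITM2. The 8 points fall into 4 groups of 2, so these values describe group patterns.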

How the data were processed

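RNA-seq of 8 libraries in 4 groups was analysed. Per the methods and the submitters' processing notes, mRNA libraries were trimmed (Cutadapt 1.9.1), aligned to hg38 (HISAT2 2.1.0, SAMtools 1.6) and counted per Ensembl gene (HTSeq 0.13.5). The authors deposited FPKM values, multiplied by 1000, for 60664 genes and 1264 repeat families. How FPKM was computed and whether counting used strand are not given in the sources used here. Values were divided by 1000. Reads were recovered from the FPKM steps with GENCODE v44 exon lengths (83.4% to 88.4% of values whole within 0.05), and served for depth and for 1 alternative.

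Genes at 1 FPKM or more in at least 2 libraries (14899) were fitted on log2(FPKM + 1) with limma 3.58.1 (R 4.3.3), as 4 group means with variances moderated along a trend, and p-values were adjusted by the Benjamini-Hochberg method. The fit code was run on simulated data, which does not vouch for the calls made here. Calls used the study's thresholds, p no higher than 0.01 before adjustment together with a log2 change of 1 or more in size. Named were the 7 members, other genes whose symbol starts with IFIT, up to 6 genes a list with the largest changes, and the 5 genes most like each family. LIPA and the readthrough gene were named for their overlap, and RIGI, HERC5, MX1, DDX60, DDX60L and OASL after their values were seen. The members and lists were chosen with earlier results of these data known. Alternatives covered pseudocount, filter, scaling, replicate block, the libraries in the fit, voom on recovered reads, and each library left out. Some items of the lists are not reported here. Sequences are RefSeq's.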

Additional observations from a re-analysis of the deposited data

Results flagged for a closer look

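The DAC effect differed between DAC-resistant and parental cells for all 7 members, by the interaction test in limma with p-values adjusted over 14899 genes. The difference in log2 fold change (DAC-resistant minus parental) was -5.45 for IFIT1 (adjusted p = 2.1e-07), -5.12 for IFIT3 (2e-07), -3.78 for IFIT2 (2.3e-07) and -2.92 for IFIT5 (5.3e-06). For the IFITM genes it was -4.87 for IFITM1 (2.1e-07), -3.96 for IFITM3 (1.3e-07) and -0.85 for IFITM2 (0.00018). Of all genes tested, 28.4% passed an adjusted p of 0.05 as lower in this test. Every parental DAC library lay above every parental DMSO library for each member, as for 44.9% of all genes. In DAC-resistant cells both DAC libraries lay below both DMSO libraries for all members but IFITM2, as for 26.4% of all genes.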

How the results depend on the processing

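Under 16 alternatives (15 for the interaction, which needs all 4 groups), the number of members called was 6, 0, 6, 5, 5 and 6 in the 6 comparisons or within 1.5 times of it. The size of IFIT5 in DAC-resistant against parental cells in DMSO fell under the threshold, at 0.97, without parental DMSO replicate 2. Signs turned for IFITM2 with DAC in DAC-resistant cells (from -0.1016 to 0.0401 when 1 library was left out, the latter without DAC-resistant DAC replicate 1) and for IFIT2 in DAC-resistant DMSO against parental DAC cells (0.0874 as TPM, and from -0.0366 to 0.0187 when 1 library was left out, the latter without parental DAC replicate 2), and none of these values passed the test. Counts over all genes moved more. With DAC in parental cells 1387 genes were called, 2097 with a pseudocount of 0.1, 573 at a mean of at least 5 FPKM, 2777 as TPM and 2208 with voom. With DAC in DAC-resistant cells 35 were called, and 107, 6, 179 and 60 in that order, with 37 to 53 when 1 library was left out. In DAC-resistant against parental cells in DMSO 1300 were called, and 2263, 517, 2586 and 2367. With DAC in both lines 2154 were called, and 3249, 908, 4193 and 3348. In DAC-resistant DMSO against parental DAC cells 2078 were called, 850 at a mean of at least 5 FPKM, 4030 as TPM and 3203 with voom, and for the interaction 1583, 721 at that mean and 2797 as TPM. Quantile normalization moved the median of all genes with DAC in parental cells from 0.06 to -0.05. Replicate numbers did not pair libraries (correlations of deviations from -0.02 to 0.02), and with the replicate block 1388 and 35 genes were called with DAC in parental and DAC-resistant cells, with no member's call changed. The causes of these shifts were not tested. With 2 replicates a group, small changes of IFIT5 and IFITM2 in DAC-resistant cells cannot be told from 0.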
